A study of Mus musculus with 2 samples.

Results

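Tenomodulin and chondromodulin are the tendon and cartilage members of a small family of membrane proteins, and scleraxis and Mohawk are transcription factors of tendon. Their genes, *Tnmd*, *Cnmd*, *Scx* and *Mkx*, were followed here in superficial zone (SFZ) cells and in costal chondrocytes (CC). Every probe set annotated to 1 of these genes alone was taken, which gave 5 of 45037 probe sets and 4 of 18193 genes. No probe set named a member together with another gene. SFZ cells came from the surface layer of articular cartilage at the femur and tibia, and CC came from the ribs, both from ICR mice of postnatal day 4. CC were freed with collagenase, and both kinds of cell were grown in DMEM with 10% FBS before total RNA was extracted. These are primary cultures for which no sort is stated, and fewer cells of a type and less RNA per cell cannot be told apart. The body site, limb joint against rib, also differs between the samples by design. Each cell type was hybridised to 1 Affymetrix mouse genome array, and therefore no difference has a replicate check and no p-value is given.

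Chondromodulin (*Cnmd*, earlier named *Lect1*) is a glycoprotein of cartilage that is made as a type II membrane protein, and a protease of the furin kind releases its C-terminal part, which inhibits endothelial growth and helps to keep cartilage free of vessels. Tenomodulin (*Tnmd*) has a homologous C-terminal part and is a marker of mature tendon and ligament cells. Both carry a BRICHOS domain, a fold that is shared by several secreted or membrane proproteins. Scleraxis (*Scx*) is a bHLH factor of tendon progenitors that binds E-boxes and activates *Tnmd* in tendon cells. Mohawk (*Mkx*) is a homeobox factor related to the Iroquois group that is required for normal growth of tendon collagen fibrils.

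RefSeq promoter sequences of GRCm38.p6 were matched for 2 of the 4 genes, *Tnmd* and *Cnmd*. Both are shown, so that the start regions of these related genes can be read side by side. Each run holds the 250 bases before the annotated start site, 5′ to 3′ on the strand of the gene. That of *Tnmd* lies at chrX:133850758-133851007 on the plus strand and that of *Cnmd* at chr14:79662184-79662433 on the minus strand. Capitals mark matches to the E-box CANNTG, the letters bound by bHLH factors, and to the Sox letters ACAAAG or ACAATG, searched on both strands.
Tnmd: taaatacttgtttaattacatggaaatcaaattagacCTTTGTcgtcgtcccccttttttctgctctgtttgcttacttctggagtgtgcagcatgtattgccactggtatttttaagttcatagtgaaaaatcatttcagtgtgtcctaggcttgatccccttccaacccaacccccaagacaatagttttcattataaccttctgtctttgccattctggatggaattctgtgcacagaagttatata
Cnmd: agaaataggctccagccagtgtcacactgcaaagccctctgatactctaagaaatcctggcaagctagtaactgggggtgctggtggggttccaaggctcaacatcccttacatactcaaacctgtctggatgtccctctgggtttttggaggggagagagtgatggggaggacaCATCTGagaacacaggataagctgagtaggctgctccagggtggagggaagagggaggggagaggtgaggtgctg
The *Cnmd* run held 1 E-box, which begins 75 bases before the start site, and the *Tnmd* run held none. The *Tnmd* run held 1 Sox match, ACAAAG on the opposite strand, which begins 213 bases before the start site, and the *Cnmd* run held none. Of 32851 promoter runs of the same length, 66.2% held an E-box and 25.2% a Sox match. The GC content was 38.4% in the *Tnmd* run and 54% in the *Cnmd* run. These matches describe letters in a short window and were not tested against the signals.

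The signals are linear MAS5 intensities, and a background level was set for each array from genes that cartilage should not use, namely 86 probe sets for receptors of odorants, tastes and pheromones. Their 95th percentile, 28.2 for SFZ cells and 26.0 for CC, served as background. A probe set counted as higher in 1 cell type where its signal there was over 100 and the ratio between the arrays was over 2, the thresholds of the study. By that rule 1 of the 5 member probe sets, that of *Tnmd*, was higher in CC, and 0 were higher in SFZ cells. Over all probe sets 3.58% passed in CC and 0.779% in SFZ cells. On each array all 5 member probe sets exceeded background. Genes were then compared through their brightest probe set. Over 12477 genes that exceeded background in at least 1 cell type, the log2 ratio of SFZ over CC signals had a median of -0.18. The same median with no signal raised to background was -0.21, and it became -0.02 with medians made equal and 0.02 with quantile normalization. Ratios of the members are therefore also given relative to the -0.18.

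*Tnmd* had a signal of 87.2 (SFZ) and 747 (CC). It was thus 8.56-fold higher in CC, a log2 ratio of -3.10, or -2.92 relative to the median of all genes. The SFZ signal was 3.09 times the background level of its array and the CC signal 28.7 times, so the ratio rests on measured values on both sides and is not a bound. Of the genes above background, 121 of 12477, or 0.970%, had a log2 ratio as low or lower. The genes with a geometric mean signal from 100 to 1000 numbered 6598, and 90% of them lay between a CC/SFZ ratio of 2.68 and an SFZ/CC ratio of 1.51. *Tnmd* was outside this range, which holds both noise and true differences between the cells. Only 1 probe set is named for *Tnmd*, so no second measurement of it was made.

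**Figure D1:**
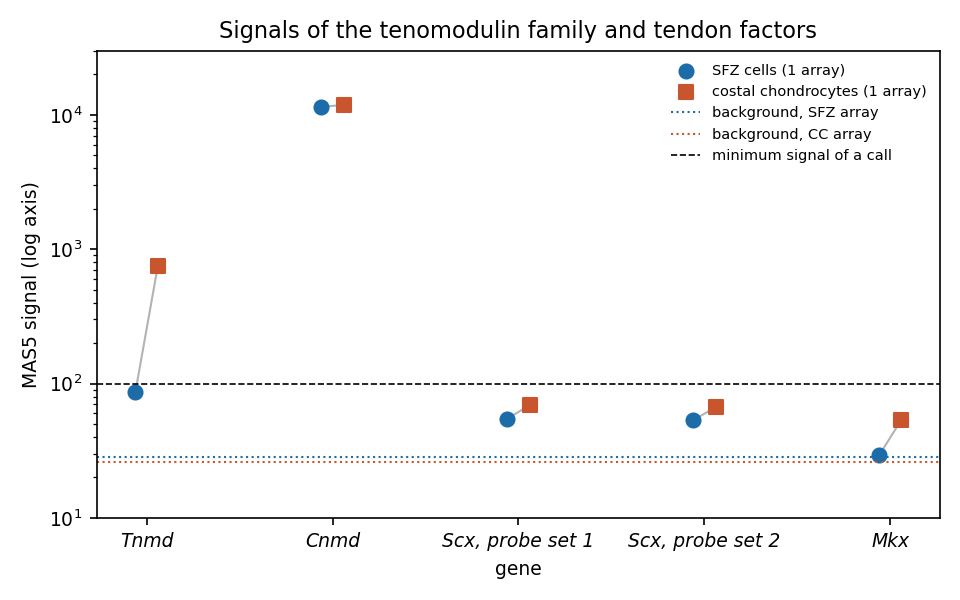
MAS5 signals (log axis) of the 5 probe sets of *Tnmd*, *Cnmd*, *Scx* and *Mkx* on 1 SFZ array (circles) and 1 CC array (squares), without error bars because each group has 1 array. The background of each array (28.2 and 26.0) is dotted, and the minimum signal of 100 is dashed. *Tnmd* differs between the arrays at 87.2 and 747, while *Cnmd* is above 10000 on both and the transcription factors are under 100 on both.

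*Cnmd* was at 11458 (SFZ) and 11864 (CC). The CC/SFZ ratio was 1.04 and the log2 ratio -0.05, so the chondromodulin signal was nearly equal in both cell types. Both values were near the top of the measured range, as 20 probe sets were brighter in SFZ cells and 14 in CC, out of 45037. Differences are small in this part of the scale. Of 27 genes with a geometric mean signal from 10000 to 20000, the log2 ratios ran only from -0.16 to 0.15. In contrast, 90% of the 1695 genes from 1000 to 10000 lay between -0.80 and 0.65. The highest signal on either array was 13754, and how far signals near this top can still register a difference was not tested. The sign of the *Cnmd* ratio turned to 0.14 with medians made equal, and no direction is given for it.

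*Scx* was measured by 2 probe sets. The first had signals of 54.7 (SFZ) and 68.9 (CC), a CC/SFZ ratio of 1.26. The second, whose ID marks probes that can cross-hybridise, had signals of 53.4 and 66.5, a CC/SFZ ratio of 1.25. The probe sets thus gave nearly the same values, 2.56% apart in SFZ cells and 3.56% apart in CC. Whether they share probes is not known here, so they are not counted as 2 independent measurements. All 4 signals were between 1.89 and 2.64 times background and under the minimum of 100. The log2 ratio of the first was -0.33, or -0.15 relative to the median of all genes, and 36.3% of the genes above background had a ratio as low or lower. Therefore *Scx* transcripts gave a weak signal in both cell types, and the difference lay well inside the spread of 3019 genes with a geometric mean signal from 30 to 100, of which 90% lay between a log2 ratio of -2.37 and 0.86.

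*Mkx* was close to background, with signals of 29.2 (SFZ) and 53.8 (CC). The SFZ signal was only 1.04 times the background level and the CC signal 2.07 times. The CC/SFZ ratio was 1.84, a log2 ratio of -0.88, or -0.70 relative to the median of all genes. It did not reach a ratio of 2, both signals were under 100, and 11.9% of the genes above background had a ratio as low or lower. The value was inside the range of genes of like signal given above for *Scx*, and it shrank to -0.34 with 64 added to both signals. *Mkx* in SFZ cells can hardly be separated from background at the precision of 1 array.

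**Figure D2:**
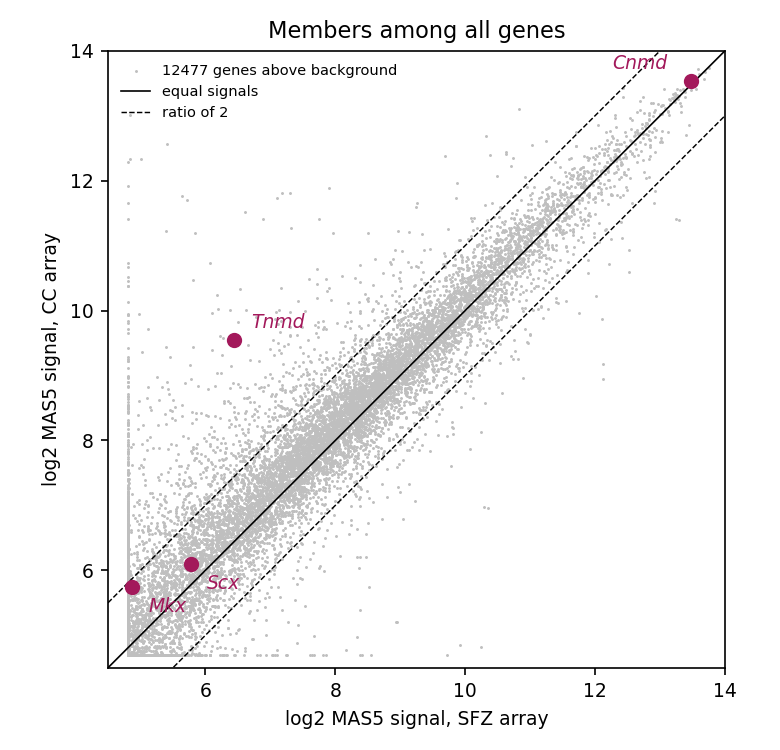
Log2 MAS5 signals of 12477 genes that exceed background on 1 or both arrays, SFZ array on the horizontal axis and CC array on the vertical axis, with signals under background raised to that level (the straight edges at left and bottom). The 4 members are labelled, and a ratio of 2, either way, is dashed. *Tnmd* lies above the upper dashed line, and *Cnmd*, *Scx* and *Mkx* lie between the dashed lines.

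The order of the CC/SFZ ratios was *Tnmd* at 8.56, *Mkx* at 1.84, *Scx* at 1.26 and *Cnmd* at 1.04. Signals of different probe sets are not compared as levels, because probe sets differ in how well they bind. The genes whose pair of signals was nearest to that of a member were found by the distance in log2 units over the 2 arrays, among 12476 others. They were *Arhgdib*, *Cdh2* and *Lrrc17* for *Tnmd*, with signals of 84.6 (SFZ) and 781 (CC), of 77.4 and 762, and of 100.5 and 708. *Cdh2* encodes N-cadherin, a cell adhesion molecule of mesenchyme, muscle and nerve. For *Cnmd* they were the ribosomal protein genes *Rpl38* and *Rps10* and the collagen gene *Col9a1*, which was at 11711 (SFZ) and 11816 (CC). For *Scx* they were *Dph2*, *Tedc1* and *Slc39a8*, and for *Mkx* they were *Il15ra*, *Gbp7* and *Fras1*. Many genes have such pairs of signals near background, so these last names carry little.

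Of the other genes of the BRICHOS and integral membrane protein 2 families, 7 were measured and 4 were above background. None of them passed the thresholds in either direction. *Itm2a*, which encodes a membrane protein of differentiating cartilage and muscle, was at 11282 (SFZ) and 11126 (CC). *Itm2b* was at 3918 and 5784 and *Itm2c* at 1423 and 1519. *Gkn3*, of the gastrokine genes of stomach, was at 46.9 and 41.6, while *Gkn1*, *Gkn2* and the surfactant gene *Sftpc* were under background on both arrays. *Furin*, which encodes the protease type that cleaves chondromodulin, was at 426 (SFZ) and 453 (CC). Of 4 genes of the furin family, *Pcsk5* passed in CC at 107 and 318, on a probe set that can bind several transcripts. With such probe sets left out 0 passed. The CC/SFZ ratio of *Pcsk5* was still 2.84 there, so the call was lost through the minimum signal and not through the ratio. By the median over its probe sets the ratio of *Pcsk5* was 1.88, and it did not pass.

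Matrix genes of tendon and ligament were split. Of 26 measured, 24 were above background, 8 passed in CC and 0 in SFZ cells. Of all genes 5.41% passed in CC and 1.18% in SFZ cells, or 7.89% and 1.72% of those that exceeded background. The median log2 ratio of the 24 was -0.42, beside -0.18 over all genes. The 8 genes were *Aspn*, *Dpt*, *Prelp*, *Thbs2*, *Col14a1*, *Thbs4*, *Eln* and *Col5a3*, and the first 6 have the largest ratios. *Aspn*, encoding asporin, a small leucine-rich proteoglycan of tendon, periosteum and cartilage, was at 56.0 (SFZ) and 1425 (CC). Its other probe set gave 35.7 and 1088. *Dpt*, encoding dermatopontin, a matrix protein that speeds collagen fibril formation, was at 46.3 and 318. *Prelp*, a proteoglycan of basement membranes and connective tissue, was at 235 and 1259. *Thbs2*, encoding thrombospondin-2, was at 334 and 1658, and its 3 probe sets all passed in CC. *Col14a1*, encoding collagen XIV on the surface of fibrils, was at 169 and 786. Through the brightest probe sets only *Aspn*, at a CC/SFZ ratio of 25.4, had a larger ratio than *Tnmd* among the 8. A dimmer probe set of *Prelp*, at 37.9 and 394, had a ratio of 10.4, and one of *Thbs2*, at 158 and 1365, had a ratio of 8.61. The call of *Col5a3* ended after quantile normalization and with 64 added, and its log2 ratio of -1.26 turned to 0.47 with the median over its probe sets. With the median over its probe sets *Eln* did not pass either.

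Of the 24 tendon matrix genes above background, 16 did not pass, among them genes for fibril collagens and proteins that bind them. Named after their values were seen, *Col1a2* was at 8677 (SFZ) and 8919 (CC) and *Col12a1*, encoding fibril-associated collagen XII, at 3252 and 3113. Other fibril collagen genes leaned to CC, as *Col1a1* was at 1482 (SFZ) and 2503 (CC) and *Col3a1* at 6421 and 8516. With the median over its probe sets *Col3a1* passed in CC, at a CC/SFZ ratio of 2.19. *Fmod*, encoding fibromodulin, was at 7011 and 6052, and its 6 probe sets had SFZ/CC ratios from 1.06 to 1.29. *Comp*, encoding a matrix protein of cartilage and tendon, was at 10285 and 8494. Keratocan (*Kera*) and *Cilp2* were under background on both arrays, and *Tppp3*, a marker of the tendon sheath, was under background in SFZ cells and at 37.3 in CC. Of the 24 genes, 18 had a log2 ratio below 0, the side of *Tnmd*, and 6 had one above 0. Over all 12477 genes above background, 62.1% had a log2 ratio as low as the -0.05 of *Cnmd* or lower. Most genes thus lay on this side of 0 as well.

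**Figure D3:**
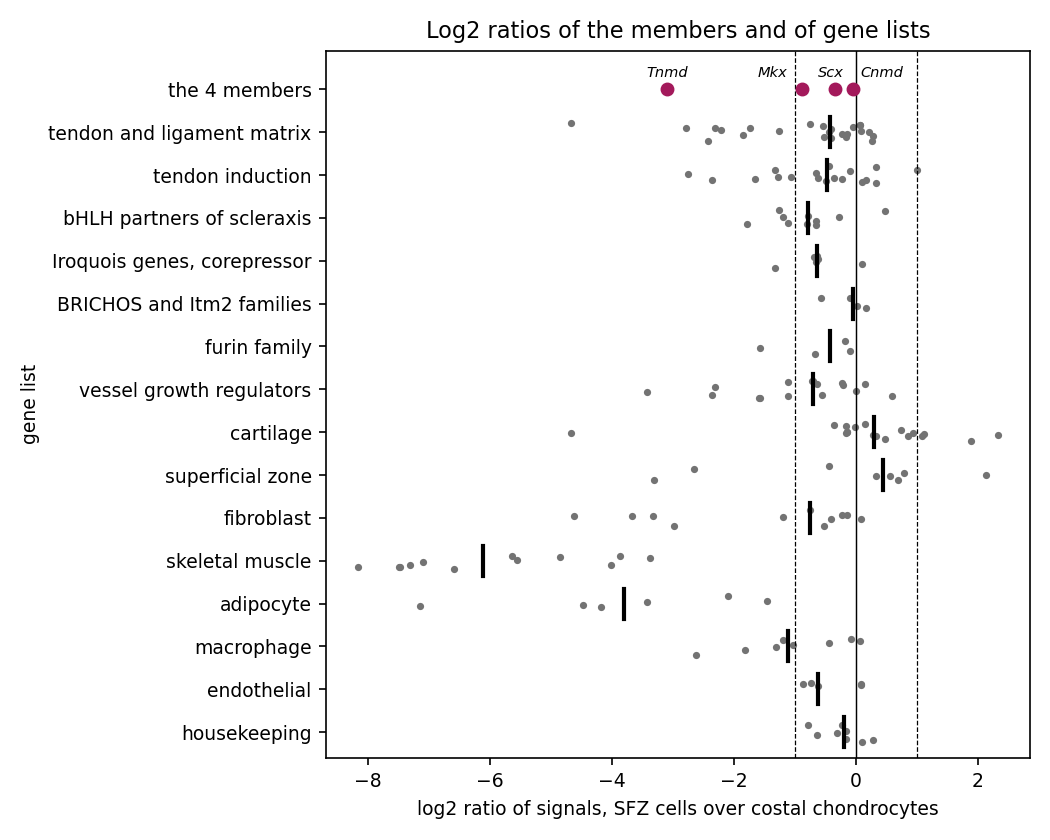
Log2 ratio of SFZ over CC signals, 1 array per cell type, for the 4 members (top row) and for the genes of 15 lists above background on at least 1 array. Signals were raised to background, each grey point is a gene, black bars are medians and a ratio of 2, either way, is dashed. *Tnmd* at -3.10 lies left of the median of the tendon matrix genes at -0.42, and the skeletal muscle genes have their median at -6.12.

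Signals and factors that act upstream of tendon differentiation were examined next. Of 20 measured, 18 were above background, and their median log2 ratio was -0.46. In CC 5 passed, or 3 after quantile normalization, and in SFZ cells 0 passed. *Tgfb3*, encoding a TGF-β ligand that induces *Scx*, was at 65.9 (SFZ) and 443 (CC), a CC/SFZ ratio of 6.73. *Tgfb2* was at 517 and 1075, and 2 of its 4 probe sets passed in CC. Its CC/SFZ ratio of 2.08 fell under the threshold at 1.83 after median scaling and at 1.82 after quantile normalization, and it did not pass with 64 added or with the median over its probe sets. *Egr1*, a zinc finger factor of tendon and an immediate early gene, was at 604 and 3092. *Egr2* was at 89.0 in CC, under the minimum, and under background in SFZ cells. *Eya1*, encoding a transcriptional cofactor with phosphatase activity, was at 88.4 and 213, and *Nfatc4*, a calcium-regulated factor, at 69.4 and 173. *Eya1* did not pass after quantile normalization, at a ratio of 1.98, and the log2 ratio of *Nfatc4* turned from -1.32 to 0.04 without probe sets that can bind several transcripts or cross-hybridise. *Six2*, a homeobox gene, lay on the other side at 59.9 (SFZ) and 29.7 (CC), an SFZ/CC ratio of 2.02, and among the settings run passed in SFZ cells only with a minimum signal of 50. *Fgf8* and *Etv4* were under background on both arrays, and *Gdf6* and *Gdf7* were not analysed here. *Tgfb1* had signals of 45.8 and 42.7 and was picked with these values in view.

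bHLH proteins work as dimers, and scleraxis binds DNA together with E proteins, which Id proteins sequester. The 10 genes of this list all exceeded background in SFZ cells and had a median log2 ratio of -0.79. Of them 3 passed in CC and 0 in SFZ cells. The 3 were the inhibitors *Id4* at 328 (SFZ) and 1127 (CC), *Id3* at 650.1 and 1551 and *Id1* at 446 and 959. All 3 probe sets of *Id4* passed. *Id1* did not pass after median scaling, at a CC/SFZ ratio of 1.89, or after quantile normalization, at 1.87. The E protein gene *Tcf4* was at 1444 and 2512, and *Twist1* and *Twist2*, bHLH genes of mesenchyme, were at 156 and 268 and at 31.5 and 71.5. None of these last 3 passed. Among relatives and partners of Mohawk, none of 9 measured genes passed and 6 were above background. *Irx5* was at 35.2 (SFZ) and 88.6 (CC), *Irx3* at 408 and 654, and the corepressor genes *Sin3a* at 110.4 and 172 and *Hdac1* at 602 and 942. *Irx1*, *Irx4* and *Irx6* were under background on both arrays.

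Because tenomodulin and chondromodulin inhibit vessel growth, secreted regulators of vessels were also read. Of 18 measured, 16 were above background, with a median log2 ratio of -0.71. In CC 5 passed, or 3 where the median of all probe sets of a gene was used, and 0 passed in SFZ cells. *Vegfd*, encoding a growth factor of lymphatic and blood vessels, had a CC signal of 302 and an SFZ signal under background, so that CC exceeded SFZ cells at least 10.7-fold. *Angpt2*, also under background on the SFZ array, reached 145 in CC, which was at least 5.15-fold higher. It did not pass with the median over its probe sets. *Angpt1*, encoding a ligand of the endothelial receptor TIE2, was at 79.5 and 236. The other 2 that passed were *Thbs2*, already counted among the tendon matrix genes, at 334 and 1658, and *Col18a1* at 64.9 and 140. The call of *Col18a1* ended after median scaling, after quantile normalization and with 64 added. Of the endothelial markers themselves, 1 of 8 was above background in SFZ cells and 5 of 8 in CC, and none passed. Over all 18193 genes, 11308 were above background in SFZ cells and 12064 in CC, so the CC count was near that share. *Tek*, *Tie1* and *Vwf* were under background on both arrays. The summed signal of the 8 was 114 (SFZ) and 257 (CC).

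Markers of skeletal muscle and fat passed on the same side as *Tnmd*, those of fibroblasts and macrophages in part, and those of endothelium did not pass. Skeletal muscle genes had a summed signal of 249 (SFZ) and 35440.0 (CC), and only 4 of them were above background in SFZ cells. Of 14 measured, 12 were above background and all 12 of these passed in CC, while *Myf5* and *Pax7* were under background on both arrays. With the median over probe sets 11 passed, as *Myod1* did not. *Myh3*, encoding embryonic myosin heavy chain, was at 3881 in CC and under background in SFZ cells. All 6 adipocyte genes measured passed in CC, where *Adipoq*, encoding adiponectin, was at 623, *Cd36*, encoding a fatty acid transporter, at 512 and *Pparg*, the regulator of fat cell formation, at 301, and all of these were under background in SFZ cells. The summed signal of the adipocyte genes was 1056 (SFZ) and 11604 (CC), of which *Lpl* gave 942 and 4009. Of 11 fibroblast genes 4 passed in CC, and the summed signals of the 11 were 28367 and 40707. Among the 4 were *Pdgfra*, a receptor of mesenchymal cells, at 91.0 and 911 and the surface marker *Thy1* at 46.3 and 366. With the median over probe sets *Pdgfra* did not pass, and the count stayed at 4 because *Col3a1* passed. Of 8 macrophage genes 3 passed in CC, or 1 after quantile normalization, with summed signals of 431 and 1952. The part of any of these cell types in the *Tnmd* signal was not tested, and with 1 array of each culture they cannot be told apart.

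Cartilage genes were read in both samples. Of 18 measured, all were above background in SFZ cells and 17 in CC, 4 passed in SFZ cells and 1 in CC, and their median log2 ratio was 0.31. Their summed signal was 97385 (SFZ) and 75542 (CC). *Cnmd* thus sat among genes such as *Col9a1* that were bright and close to equal on both arrays, whereas *Tnmd* had a lower SFZ signal beside cartilage signals that were at least as high in SFZ cells by their sum and median. All 8 superficial zone markers were above background in SFZ cells and 6 of them in CC. Of all 18193 genes, 11308 were above background in SFZ cells and 12064 in CC. *Prg4*, encoding lubricin, passed in SFZ cells at 323 (SFZ) and 73.6 (CC), and 2 of the markers, *Vcam1* and *Dkk3*, passed in CC. *Gdf5*, which is also on the tendon induction list, was at 93.1 and 74.2 and did not pass. None of 8 housekeeping genes passed, and their median log2 ratio was -0.19.

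**Figure D4:**
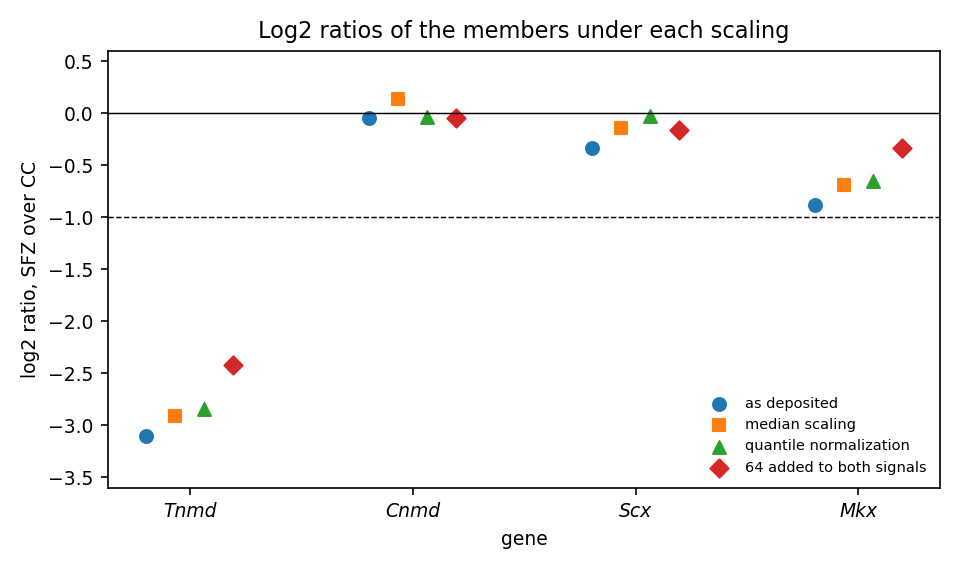
Log2 ratio of SFZ over CC signals of the 4 members with signals as deposited, after median scaling, after quantile normalization and after adding 64 to each signal, from 1 array per cell type and so without error bars. The solid line marks equal signals and the dashed line a CC/SFZ ratio of 2. *Tnmd* stays between -3.10 and -2.42, under the dashed line at every setting, and the other members stay above it.

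The ratio of *Tnmd* kept its side of the thresholds at each scaling that was run. It was -2.91 after median scaling and -2.84 after quantile normalization. *Scx* was at -0.14 and -0.03 under the same settings and *Mkx* at -0.69 and -0.65, and neither passed.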

How the data were processed

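Labelled cRNA from 100 ng of total RNA was hybridised to Affymetrix arrays, 1 for SFZ cells and 1 for CC. The values deposited by the authors are MAS5 signals, an intensity per probe set on a linear scale, and no scaling was added here. Version, scaling target and detection calls of MAS5 are not stated. After 64 control probe sets were left out, 45037 remained, and 34945 of these had 1 gene symbol, of which 34741 matched RefSeq by Entrez ID with 0 changes of symbol. Probe sets with several symbols (932) or none (9211) were not named, and these counts include some control probe sets. No genome build is given for the array, and coordinates are those of RefSeq promoters.

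The members and the 15 gene lists were chosen with earlier results of these data known. A gene was read through its brightest probe set by mean log2 signal. Ratios with a signal at or under background are bounds. The text names all member probe sets, markers under background on both arrays, and the 3 nearest genes per member. From each list it names some of the 6 genes with the largest ratios, not always the largest. Other named genes complete a count or were picked with their values in view. The counting rule was run on simulated signals in which only bright genes were changed and the noise was small. That run does not cover weak signals such as those of *Scx* and *Mkx*. Other settings tried were quantile normalization, median scaling, a floor at background, 64 added, other thresholds, a 90th percentile background, and other rules for probe sets. The number of arrays limits the precision. Python 3.11.15, numpy 2.4.6, pandas 2.3.3 and matplotlib 3.10.9 were used.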

Additional observations from a re-analysis of the deposited data

How the results depend on the processing

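The log2 ratio of *Tnmd* became -2.42 with 64 added to both signals, an addition that shrinks ratios of low signals by construction, and it still passed in CC. The other 19 ratios of members under alternatives moved by less than 1.5 times, and none of *Cnmd*, *Scx* and *Mkx* passed. Some of the 19 could not move. The floor at background leaves every member as it was, because all exceed background on both arrays. The median over probe sets can change only *Scx*, because the other members have 1 probe set each. Among the probe sets of members 1 passed in CC and 0 in SFZ cells at every threshold and scaling run, and all 5 stayed above background at the 90th percentile. The 214 genes higher in SFZ cells became 333 with median scaling, 376 with quantile normalization, 136 with 64 added, 527 at a ratio over 1.5 and 81 at a ratio over 3. The 985 genes higher in CC became 1901 and 524 at these ratios. The share of calls higher in SFZ cells was 17.8%, against 30.6% after median scaling and 35.4% after quantile normalization. Over all lists 5 genes were higher in SFZ cells, 10 at a ratio over 1.5 and 3 at a ratio over 3. The 5 tendon induction genes higher in CC became 3 after quantile normalization or with 64 added, and 2 at a ratio over 3 or with the median over probe sets. Of the counts per list and direction under alternatives, 272 stayed within 1.5 times and 28 did not. Many of the 272 were counts of 0 that stayed 0, and the floor at background changed no count. The number that stayed is therefore not a measure of how stable the lists are. The moves with other thresholds follow from their construction, whereas the cause was not tested for the scalings or the rule for probe sets. No paired analysis was possible because each group has 1 array.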

Other observations

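Within the cartilage genes, *Cytl1*, which encodes a small secreted protein of chondrocytes, was at 67.0 (SFZ) and 1699 (CC) on its only probe set, a log2 ratio of -4.66. The lowest log2 ratio among the other genes of the list was that of *Sox9*, -0.35. Among superficial zone markers *Dkk3*, a secreted modulator of Wnt signaling, was at 55.6 (SFZ) and 348 (CC), while *Erg*, an ETS factor of articular cartilage, was at 113 and 65.2 and did not pass.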
